A study of Mus musculus with 24 samples.

Results

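Endothelial marker genes were followed in whole mouse kidneys with and without a deletion of Pex5 in the renal tubule. The markers are 10 genes taken by symbol as known genes of the endothelium: Pecam1, Cdh5, Kdr, Flt1, Tek, Emcn, Plvap, Ehd3, Eng and Tie1. They were found by Ensembl gene identifier among the 55335 genes of each file, and 10 of 10 passed the filter on low counts, as did 16092 genes in all. Their read counts per kidney ranged from 425 for Tie1 to 3359 for Kdr.

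RNA was sequenced from the whole kidneys of 24 mice, 6 in each of 4 groups. Ctrlm and Ctrlf were male and female Pex5lox/lox mice. The cKOm and cKOf mice were Pex5lox/lox/Pax8-rtTA/LC1 animals of each sex, in which the Pax8 promoter drives the doxycycline (DOX) dependent activator in renal tubule cells and LC1 carries the Cre recombinase, so endothelial cells were not the target of the deletion. Both alleles of Pex5 were floxed in all groups and the controls, which were littermates on the same C57BL/6J background, also drank DOX. DOX was given for 2 weeks, starting when the mice were 8 weeks old, and the kidneys were collected once 4 more weeks had passed. Pex5 encodes the receptor that carries proteins into peroxisomes.

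The endothelium of the kidney is not uniform. Glomerular capillaries are fenestrated and filter the plasma, peritubular capillaries are fenestrated and take back what the tubule reabsorbs, and the vasa recta supply the medulla. All of them depend on vascular endothelial growth factor (VEGF), which podocytes and tubule cells secrete and which binds the receptors KDR (VEGFR2) and FLT1 (VEGFR1). A second system consists of the angiopoietins and the receptor TEK (TIE2) with its partner TIE1. Since the tubule cells that lose Pex5 lie next to these capillaries, the comparison shows whether the level of endothelial transcripts in the whole organ differed after the deletion. In RNA of a whole organ, fewer endothelial cells and less of a transcript per cell cannot be told apart.

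In the GRCm38 build, Pecam1 (ENSMUSG00000020717) lies on chromosome 11 from 106654217 to 106750628 (minus strand) and Cdh5 (ENSMUSG00000031871) lies on chromosome 8 from 104101625 to 104144511 (plus strand). Kdr (ENSMUSG00000062960) lies on chromosome 5 from 75932827 to 75978458 (minus strand) and Flt1 (ENSMUSG00000029648) lies on chromosome 5 from 147561604 to 147726011 (minus strand). Tek (ENSMUSG00000006386) lies on chromosome 4 from 94739289 to 94874976 (plus strand) and Tie1 (ENSMUSG00000033191) lies on chromosome 4 from 118471191 to 118490061 (minus strand). Emcn (ENSMUSG00000054690) lies on chromosome 3 from 137341067 to 137432185 (plus strand) and Plvap (ENSMUSG00000034845) lies on chromosome 8 from 71497765 to 71511752 (minus strand). Ehd3 (ENSMUSG00000024065) lies on chromosome 17 from 73804134 to 73832094 (plus strand) and Eng (ENSMUSG00000026814) lies on chromosome 2 from 32646595 to 32682669 (plus strand). Reads over all annotated exons of each gene were counted, untranslated exons included.

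Promoter sequences are shown for both VEGF receptors, both TIE receptors and Eng. RefSeq (GRCm38.p6) gave a promoter, from 250 bases before to 50 bases after the start, for 7 of the 10 genes. Pecam1, Cdh5 and Plvap were not in that table. Each sequence runs 5′ to 3′ on the strand of the gene, and capitals mark every match to GGAAG or its reverse complement CTTCC, a form of the core that factors of the ETS family bind.
Kdr, chr5:75978406-75978705, minus strand: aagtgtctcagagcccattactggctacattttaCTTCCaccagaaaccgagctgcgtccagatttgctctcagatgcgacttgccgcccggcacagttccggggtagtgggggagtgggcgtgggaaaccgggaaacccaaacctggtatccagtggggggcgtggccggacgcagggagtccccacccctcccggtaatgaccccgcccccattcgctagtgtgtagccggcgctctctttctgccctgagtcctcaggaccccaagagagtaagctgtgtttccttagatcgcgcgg
Flt1, chr5:147725962-147726261, minus strand: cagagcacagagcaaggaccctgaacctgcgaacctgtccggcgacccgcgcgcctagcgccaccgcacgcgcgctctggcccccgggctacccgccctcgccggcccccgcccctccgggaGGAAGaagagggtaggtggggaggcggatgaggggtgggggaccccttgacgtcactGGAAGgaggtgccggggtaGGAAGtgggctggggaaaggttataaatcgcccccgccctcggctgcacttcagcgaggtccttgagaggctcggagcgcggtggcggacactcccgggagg
Tek, chr4:94739039-94739338, plus strand: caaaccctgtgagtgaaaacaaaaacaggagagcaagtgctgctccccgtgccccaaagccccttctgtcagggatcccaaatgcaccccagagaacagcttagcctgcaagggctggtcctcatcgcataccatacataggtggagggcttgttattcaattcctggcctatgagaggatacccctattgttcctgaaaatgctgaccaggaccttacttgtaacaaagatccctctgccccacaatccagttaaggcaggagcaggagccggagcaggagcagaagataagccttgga
Tie1, chr4:118489800-118490099, minus strand: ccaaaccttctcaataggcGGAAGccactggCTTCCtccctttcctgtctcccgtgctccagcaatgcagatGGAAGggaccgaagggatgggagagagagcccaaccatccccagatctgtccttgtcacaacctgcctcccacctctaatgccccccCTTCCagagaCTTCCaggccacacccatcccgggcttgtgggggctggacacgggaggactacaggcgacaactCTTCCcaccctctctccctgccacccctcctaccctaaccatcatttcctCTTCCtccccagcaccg
Eng, chr2:32646345-32646644, plus strand: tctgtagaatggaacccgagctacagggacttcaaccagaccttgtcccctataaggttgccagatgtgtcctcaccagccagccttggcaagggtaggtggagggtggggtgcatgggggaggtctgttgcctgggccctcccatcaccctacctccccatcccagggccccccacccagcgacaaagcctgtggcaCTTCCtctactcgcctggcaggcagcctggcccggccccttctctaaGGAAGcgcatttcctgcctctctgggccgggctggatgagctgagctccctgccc
Tie1 had 7 matches, which only 0.234% of 32851 promoters of the same length reached. The start of Tie1 in the gene bounds given above lies inside this window, so RefSeq and that annotation place it differently. For Ehd3, the whole window lies within the gene bounds. Flt1 had 3 matches, and 16.5% of all promoters held 3 or more. Of the 7 promoters, only that of Flt1 also held TATAAA, the letters of a TATA box, searched on the strand of the gene, left in lower case and present in 8.32% of all promoters. The letters of TATAAA cannot overlap a match to the other motif. Emcn and Eng had 2 matches each, Kdr and Ehd3 had 1 each, and Tek had none. A single match is common, as 71.4% of all promoters held at least 1. A match is only a run of letters, and no binding was measured here.

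Each library gave 19376152 to 28470831 reads assigned to genes. Replicates within a group were further apart than counting error alone would place them, and errors were therefore taken from the spread between mice. Levels are given in CPM, a count divided by the TMM-scaled size of its library. Pex5 itself ranged from 41.8 to 47.3 CPM in cKOm, below the 49.1 to 62.8 CPM of every Ctrlm kidney (log2 fold change -0.31, edgeR adjusted p = 0.0219, but 0.0657 without Ctrlm replicate 2, 0.0508 without cKOm replicate 4 and 0.124 with the hepatocyte score as a covariate), and from 38 to 48.5 CPM in cKOf against 43 to 61.7 in Ctrlf (-0.21, adjusted p = 0.177). Reads over all of its exons were counted, so transcripts that lack the deleted part are included. The paper reports PEX5 protein as nearly gone in cKOm but still present, at a lower level, in cKOf kidneys. It also reports a significant reduction of Pex5 mRNA in both sexes. Some full-length Pex5 mRNA remained in cKOf, and the paper proposes incomplete excision there. By electron microscopy, it found hardly any peroxisomes in proximal tubules of either sex. Sex and the completeness of the deletion cannot be told apart where male and female changes are compared. A total of 3 kidneys stood apart from their groups in the balance between long and short transcripts: Ctrlm replicate 5, Ctrlf replicate 4 and cKOf replicate 6. Their length index, the mean log2 CPM of genes with transcripts of 5589 bases or more less that of genes with transcripts of 2133 bases or less, was -0.187, 0.03 and -0.275, while it lay between 0.258 and 0.617 in the other kidneys. Results are therefore also given without these kidneys, an alternative chosen after seeing the data. Transcripts typical of liver were uneven as well: the summed level of 13 hepatocyte genes was 145.9 to 1039 CPM in Ctrlm, 146.1 to 579 in cKOm, 93.7 to 142.5 in Ctrlf and 66.8 to 153.7 in cKOf kidneys.

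Each of the 10 markers was detected in all 24 kidneys, at 21.4 CPM or more. Divided by the length of the annotated exons, the mean level over the 24 kidneys was highest for Plvap, which builds the diaphragms of fenestrae, at 43.2 CPM per kilobase (SD 6.54). It was followed by Eng at 21.4 (SD 3.81), Cdh5 at 15.8 (SD 2.7), Emcn at 14.4 (SD 1.54), Tek at 12.1 (SD 1.32), Pecam1 at 11.5 (SD 1.15), Kdr at 11.3 (SD 1.21), Flt1 at 7.88 (SD 0.763), Ehd3 at 6.82 (SD 1.25) and Tie1 at 5.77 (SD 0.763), all in CPM per kilobase. The ranges of each gene and the next one in this order overlapped. Plvap, Eng, Ehd3 and Tie1 kept their places when the longest transcript was used in place of all exons, but Emcn, Pecam1 and Kdr then lay above Cdh5, and Flt1 above Tek. Only Eng shared annotated exon bases with another gene, 61 bases or 1.51% of its exons with Fpgs on the opposite strand.

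In males, the level of most markers was slightly lower in cKOm than in Ctrlm kidneys, but none passed the threshold of adjusted p under 0.05 (edgeR quasi-likelihood test, Benjamini-Hochberg adjustment over the tests of both sexes). The number called was 0 of 10, where 9.05% of all tested genes were called (1456 of 16092). The log2 fold change was negative for 9 of the 10 markers, against 47.7% of all genes, and its median was -0.15 beside 0.01 over all genes. At an unadjusted p under 0.05 there were 4 markers, Emcn, Plvap, Eng and Tie1, against 25.1% of all genes. limma-voom also called 0 and DESeq2 called 1, Emcn, where they called 8.65% and 10.9% of all genes. In females the number called was 0 of 10, where 0.851% of all genes were called, and at an unadjusted p under 0.05 there was 1, Tek, against 6.73% of all genes. limma-voom and DESeq2 also called 0 in females, where they called 0.826% and 1.17% of all genes. The female median was -0.06 beside 0.00 over all genes, with 9 of 10 negative against 49.5% of all genes. Genotype comparisons in each sex use different kidneys, but they come from 1 model with 1 estimate of the spread.

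**Figure D1:**
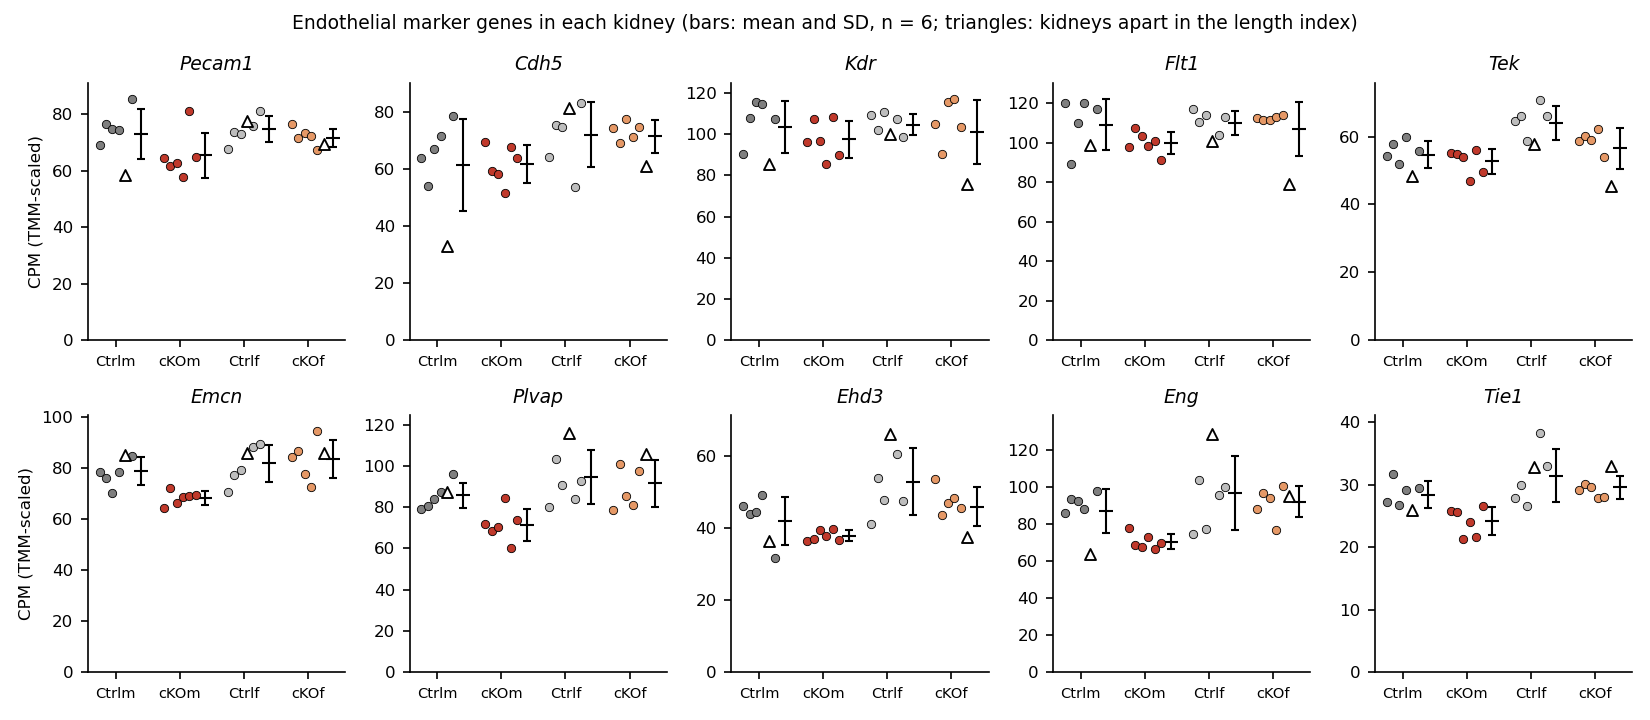
Level of each of the 10 endothelial markers in CPM (vertical axes, from 0) in the 6 kidneys of each group. Points are kidneys, bars give mean and SD, and triangles are the 3 kidneys that stand apart in the length index. For Emcn, Plvap and Tie1, 5 of 6 cKOm kidneys lie below every Ctrlm kidney, and for Tek the triangles are the lowest points of their groups.

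Pecam1 and Cdh5 encode adhesion proteins of the junctions between endothelial cells, platelet endothelial cell adhesion molecule and VE-cadherin. Pecam1 was at 58.4 (lowest), 74.7 (median) and 85.4 CPM (highest) in Ctrlm and at 57.9, 63.6 and 81.2 in cKOm kidneys. The groups overlapped, with 5 of 6 cKOm kidneys below the Ctrlm median and cKOm replicate 5 well above the other cKOm kidneys. The log2 fold change was -0.16 (95% interval -0.33 to 0.01, adjusted p = 0.357), and without the kidneys that stand apart it was -0.24 (adjusted p = 0.0577). In females Pecam1 was at 67.8, 74.8 and 81.1 CPM in Ctrlf and at 67.4, 71.9 and 76.5 in cKOf kidneys, a log2 fold change of -0.06 (-0.23 to 0.11, adjusted p = 0.799). Cdh5 was at 33, 65.4 and 78.5 CPM in Ctrlm and at 51.4, 61.5 and 69.3 in cKOm kidneys. The low value came from Ctrlm replicate 5, and the next Ctrlm kidney was at 53.9 CPM. The log2 fold change in males was 0.01 (-0.28 to 0.29, adjusted p = 0.990). Its sign was not stable: it was negative with DESeq2 and with RLE or upper quartile scaling, and it was -0.14 (adjusted p = 0.504) without the kidneys that stand apart. In females Cdh5 was at 53.5, 75 and 83 CPM in Ctrlf and at 61.1, 72.9 and 77.6 in cKOf kidneys, with a log2 fold change of -0.01 (-0.30 to 0.27, adjusted p = 0.982).

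Kdr and Flt1 encode the VEGF receptors, of which KDR carries most of the signal and FLT1 binds VEGF more tightly and limits it. Kdr was at 85.5, 107.7 and 115.9 CPM in Ctrlm and at 85.7, 96.6 and 108.5 in cKOm kidneys, and the ranges nearly coincided. The log2 fold change was -0.09 (-0.28 to 0.11, adjusted p = 0.734). In females Kdr was at 98.6, 104.7 and 110.9 CPM in Ctrlf and at 75.9, 104.2 and 116.9 in cKOf kidneys. The lowest value belonged to cKOf replicate 6, and the log2 fold change was -0.05 (-0.24 to 0.15, adjusted p = 0.876). Flt1 was at 89, 113.4 and 120.2 CPM in Ctrlm and at 91.3, 99.5 and 107.3 in cKOm kidneys. All 6 cKOm kidneys were below the Ctrlm median, but the groups overlapped (log2 fold change -0.13, -0.30 to 0.05, adjusted p = 0.514). In cKOf kidneys Flt1 was at 79.3 CPM in replicate 6 and between 111.3 and 114.1 in the other 5, against 101.1 to 116.9 in Ctrlf. The log2 fold change in females was -0.04 (-0.22 to 0.14, adjusted p = 0.888), and 0.03 without cKOf replicate 6.

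Tek encodes the angiopoietin receptor TIE2 and Tie1 a related receptor that binds no angiopoietin by itself and modulates TEK. Tek was at 48.5, 55 and 59.8 CPM in Ctrlm and at 46.8, 54.5 and 56 in cKOm kidneys, with almost the same median (log2 fold change -0.05, -0.21 to 0.11, adjusted p = 0.829). In females Tek was at 57.8, 65.3 and 70.9 CPM in Ctrlf and at 45.5, 58.8 and 62.1 in cKOf kidneys. The lowest cKOf value was again replicate 6, and the log2 fold change was -0.18 (-0.34 to -0.02, adjusted p = 0.238). Tie1 was at 25.9, 28.1 and 31.7 CPM in Ctrlm and at 21.4, 24.9 and 26.6 in cKOm kidneys. A total of 5 of the 6 cKOm kidneys were below every Ctrlm kidney, and the log2 fold change was -0.23 (-0.41 to -0.05, adjusted p = 0.147). In females Tie1 was at 26.6, 31.4 and 38.3 CPM in Ctrlf and at 27.9, 29.4 and 32.9 in cKOf kidneys, a log2 fold change of -0.09 (-0.26 to 0.09, adjusted p = 0.706).

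Eng encodes endoglin, a coreceptor for ligands of the TGF-beta family. It was at 64.2, 90.6 and 98 CPM in Ctrlm and at 66.6, 69.5 and 78 in cKOm kidneys. All Ctrlm kidneys except replicate 5 were at 86.1 CPM or above, higher than every cKOm kidney. With all kidneys the log2 fold change in males was -0.30 (-0.53 to -0.08) and the adjusted p was 0.130. The call changed with the kidneys and with the model. Without Ctrlm replicate 5 the log2 fold change was -0.38 (adjusted p = 0.0330, 7.54% of all genes called), and without all 3 kidneys that stand apart it was -0.40 (adjusted p = 0.00442). Fitted on the males alone, it was -0.32 (adjusted p = 0.0482, 9.52% of all genes called). Over all alternatives the adjusted p ranged from 0.00442 to 0.495, the highest with the hepatocyte score of each kidney as a covariate. In females Eng was at 74.8, 98.2 and 129.1 CPM in Ctrlf and at 77.2, 94.9 and 100.9 in cKOf kidneys. The highest Ctrlf value belonged to replicate 4, which stands apart in the length index, and the log2 fold change was -0.07 (-0.30 to 0.15, adjusted p = 0.831).

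Emcn encodes endomucin, a surface sialoglycoprotein of capillaries and veins. It was at 70.1, 78.3 and 84.9 CPM in Ctrlm and at 64.4, 68.7 and 71.9 in cKOm kidneys. Of the cKOm kidneys, 5 were below every Ctrlm kidney, and the log2 fold change of -0.21 (-0.36 to -0.06) had an adjusted p of 0.108 (0.0434 with DESeq2). In females it was at 70.5, 82.6 and 89.2 CPM in Ctrlf and at 72.6, 85 and 94.3 in cKOf kidneys, with a log2 fold change of 0.03 (-0.12 to 0.18, adjusted p = 0.896). Plvap was at 79.2, 85.6 and 96.2 CPM in Ctrlm and at 60.3, 70.9 and 84.3 in cKOm kidneys. Again 5 of 6 cKOm kidneys were below every Ctrlm kidney (log2 fold change -0.26, -0.46 to -0.07, adjusted p = 0.118). With the GC index of each kidney as a covariate, defined like the length index from the GC content of transcripts and also chosen after seeing the data, the adjusted p was 0.0278 (11.1% of all genes called). In females Plvap was at 80.3, 91.7 and 115.8 CPM in Ctrlf and at 78.5, 91.5 and 105.9 in cKOf kidneys, almost the same medians (log2 fold change -0.05, -0.24 to 0.15, adjusted p = 0.882). Ehd3, which encodes a protein of endocytic recycling found in glomerular endothelial cells, was at 31.6, 44.3 and 49.2 CPM in Ctrlm and at 36.4, 37.6 and 39.8 in cKOm kidneys. All 6 cKOm kidneys were below the Ctrlm median and within the Ctrlm range (log2 fold change -0.15, -0.37 to 0.07, adjusted p = 0.568). In females Ehd3 was at 41.3, 51 and 66.3 CPM in Ctrlf and at 37.7, 46.3 and 53.7 in cKOf kidneys (log2 fold change -0.20, -0.42 to 0.02, adjusted p = 0.378).

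**Figure D2:**
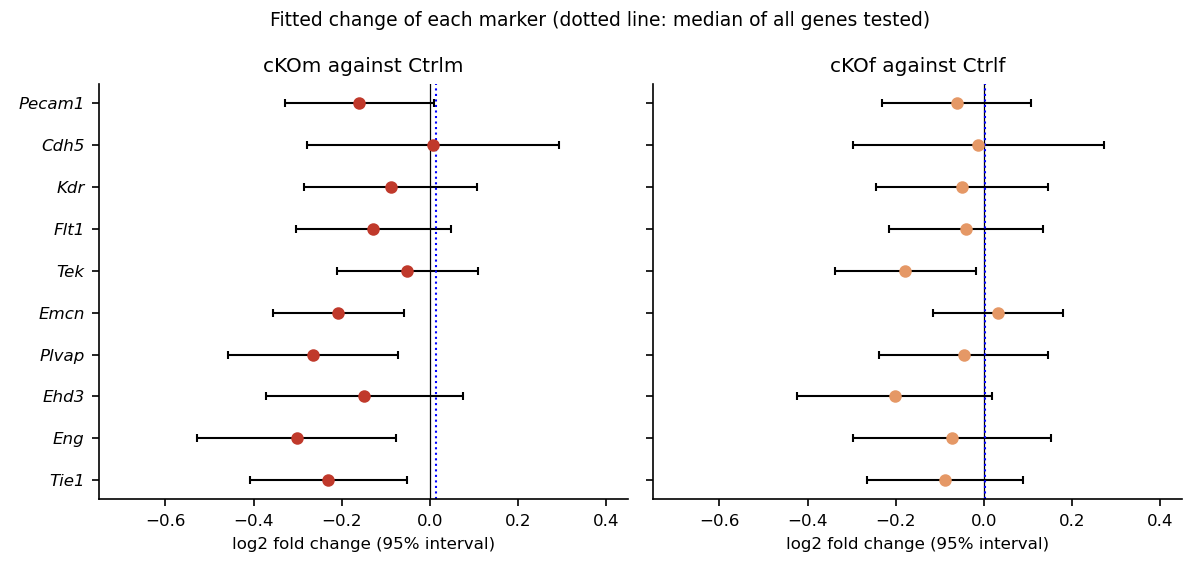
Fitted log2 fold change (horizontal axes) of each marker with its 95% interval, cKOm against Ctrlm on the left and cKOf against Ctrlf on the right. The dotted lines give the median of all 16092 genes. In males the intervals of Emcn, Plvap, Eng and Tie1 lie below 0, and in females that of Tek does.

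Without the 3 kidneys that stand apart, 10 of 10 markers had a negative log2 fold change in males (50.8% of all genes), 8 had an unadjusted p under 0.05 (26.3% of all genes), and Eng alone was called (10.1% of all genes). The median was then -0.21 in males and -0.02 in females, where edgeR called 0 of 10 markers, 1 marker had an unadjusted p under 0.05 and 1.08% of all genes were called. Whether the change differed by sex was tested as the interaction of genotype and sex, which edgeR called for 0 of 10 markers, where 2.31% of all genes were called. limma-voom and DESeq2 also called 0 of 10, where they called 1.94% and 3.58% of all genes. Emcn alone had an unadjusted p under 0.05, as had 13.4% of all genes (interaction -0.24 on the log2 scale, -0.45 to -0.03, adjusted p = 0.291). Macrophage markers were counted beside these. In males 1 of 10 was called, close to the 9.05% of all genes, and 9 of 10 log2 fold changes were negative (47.7% of all genes, median -0.48). In females edgeR, limma-voom and DESeq2 called 0 of 10 (0.851%, 0.826% and 1.17% of all genes). There 10 of 10 were negative (49.5% of all genes, median -0.43) and 4 had an unadjusted edgeR p under 0.05 (6.73% of all genes). The summed level of the 10 genes was 217 to 1248 CPM in Ctrlf (median 249.9) and 183.9 to 306.5 in cKOf kidneys (median 209). The highest Ctrlf level thus lay far above the Ctrlf median. Cd74 was called in females without the kidneys that stand apart (1.08% of all genes called). The summed level of 10 macrophage markers was 233.7 to 394 CPM in Ctrlm and 161.7 to 248 in cKOm kidneys, and Csf1r, the receptor that macrophages need to survive, fell in males (log2 fold change -0.34, adjusted p = 0.0399), a call lost under 8 of 37 alternatives, 7 of which left out 1 male kidney (adjusted p up to 0.264). Some leukocytes also carry Pecam1 and Eng. The part of these cells in the marker levels was not tested. With the hepatocyte score as a covariate, 0 of 10 markers were called in males, where 5.26% of all genes were called. That score itself differed between Ctrlm and cKOm kidneys, so this fit cannot separate it from genotype. Of 8 platelet markers, only Itga2b passed the filter on low counts, and Pf4 and Ppbp, which define platelets, had at most 14 and 12 counts in any kidney.

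Between the sexes, all 10 markers had a negative fitted difference of Ctrlm from Ctrlf kidneys, as had 54.8% of all genes, but 6 of 10 without the kidneys that stand apart, and 2 passed the threshold (edgeR, adjusted over the genes of this comparison), where 16.8% of all genes were called and 8.1% were called lower. Ehd3 was the larger, with a log2 difference of -0.33 (-0.56 to -0.11, adjusted p = 0.0328), and Tek followed with -0.23 (-0.39 to -0.07, adjusted p = 0.0435). These kidneys are also the controls of the genotype comparisons. Tek passed but Ehd3 did not without the kidneys that stand apart (adjusted p = 0.0266 and 0.180, 16% of all genes called). With DESeq2 Ehd3 passed and Tek did not (0.0332 and 0.0555, 17.8% of all genes called), and neither passed with the hepatocyte score as a covariate (0.105 and 0.619). The hepatocyte genes differed strongly between these groups, 12 of 13 being higher in Ctrlm. Podocyte genes were lower in Ctrlm for 6 of 10, including Nphs1, which encodes nephrin of the slit diaphragm (log2 difference -0.58, adjusted p = 6.51e-05).

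The ligands of these receptors were measured in the same kidneys. Of 13 ligand genes, 9 were tested, and Pgf, Angpt4, Gdf2 and Bmp10 did not reach the filter. Only Angpt1, which encodes the agonist of TEK, passed the threshold, as did 9.05% of all genes in males and 0.851% in females. It rose in both sexes. It was at 19.1, 23.3 and 28.3 CPM in Ctrlm and at 32.3, 39.5 and 44.9 in cKOm kidneys, with no overlap (7.38% of all genes did not overlap between these groups). The log2 fold change was 0.75 (adjusted p = 2.12e-05), and it was called under every alternative run. In females it was at 22.5, 25.5 and 29.1 CPM in Ctrlf and at 25.3, 33.7 and 38.5 in cKOf kidneys, which overlapped (log2 fold change 0.36, adjusted p = 0.0419). The female call was lost under 21 of 37 alternatives, and its adjusted p ranged from 0.00593 to 0.254. Those that lost it included limma-voom (adjusted p = 0.0505). The change was not shown to differ between the sexes (interaction 0.39, adjusted p = 0.201). Angpt2, the context dependent antagonist of TEK, was at 15, 20.5 and 23.4 CPM in Ctrlm and at 17.2, 20.1 and 21.1 in cKOm kidneys. Vegfa was the ligand with the highest level per length (64 CPM per kilobase), followed by Vegfb (23.1) and Vegfd (6.3). It was at 258 to 295 CPM in Ctrlm and 260 to 298 in cKOm kidneys, and at 259 to 301 in Ctrlf and 247 to 282 in cKOf kidneys, so the ranges overlapped in both sexes.

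**Figure D3:**
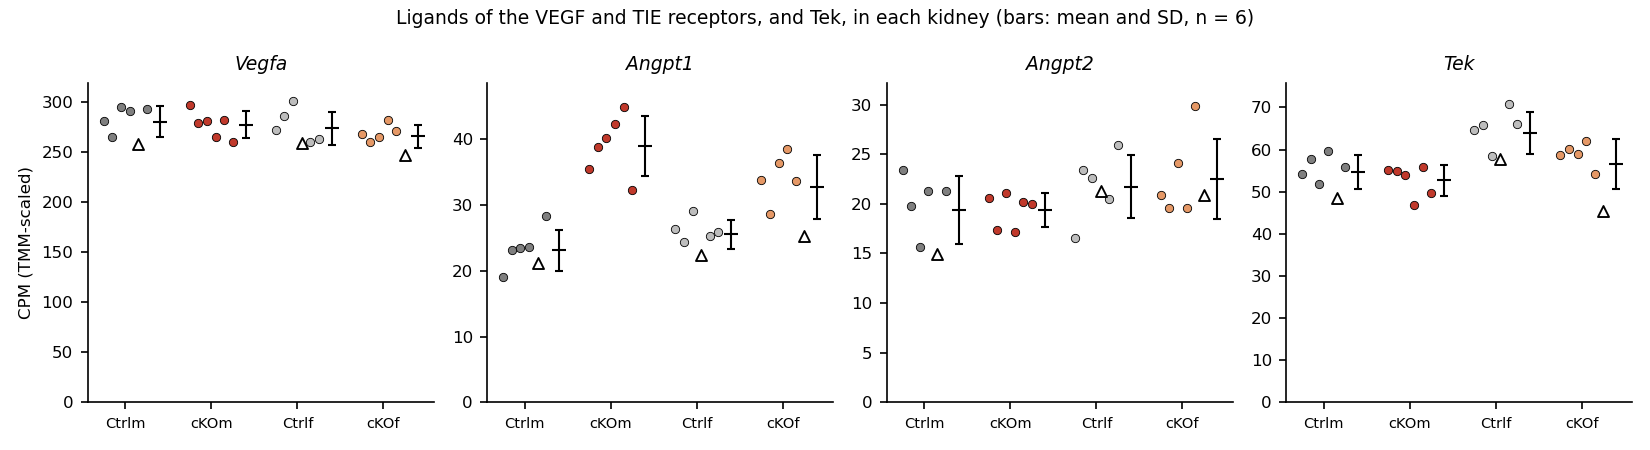
Level in CPM (vertical axes, from 0) of Vegfa, Angpt1, Angpt2 and the receptor gene Tek in the 6 kidneys of each group. Points are kidneys, bars give mean and SD, and triangles are the kidneys that stand apart in the length index. The cKOm kidneys lie at 32.3 CPM or higher for Angpt1, above all Ctrlm kidneys, while the groups overlap for the other 3 genes.

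Wider endothelial lists were counted in the same way. Of all genes, edgeR called 9.05% in males and 0.851% in females, limma-voom 8.65% and 0.826%, and DESeq2 10.9% and 1.17%. An unadjusted edgeR p under 0.05 was reached by 25.1% of all genes in males and 6.73% in females. Without the kidneys that stand apart, edgeR called 10.1% in males and 1.08% in females. Among 26 further genes of endothelium in general, edgeR called 0 in either sex. In males 22 of 26 were negative (47.7% of all genes) with a median of -0.11, and in females 19 of 26 (49.5% of all genes) with a median of -0.09. At an unadjusted p under 0.05 there were 4 in males and 3 in females, and limma-voom and DESeq2 also called 0. Their most abundant members per length were Adgrl4, S1pr1, a receptor for sphingosine 1-phosphate, and Mmrn2. Of 12 coreceptors and signalling partners (Tgfbr1, Tgfbr2 and Nrp1 the most abundant), of 12 genes of the Notch and ephrin pathways (Ephb4, Hes1 and Jag1) and of 19 tested transcription factors (Epas1, Foxo1 and Ets2), 0 were called in either sex. At an unadjusted p under 0.05, these lists held 2, 0 and 1 genes in males and 0, 1 and 0 in females, and limma-voom and DESeq2 called 0 in each. Genes of arterial endothelium (0 of 9) and lymphatic endothelium (0 of 5 tested) were not called in either sex by edgeR, limma-voom or DESeq2, with 2 arterial genes in males, and otherwise 0, at an unadjusted edgeR p under 0.05. Without the kidneys that stand apart, Fbln5 of the arterial list was called in males and Robo4 of the general list in females. The glomerular list had 1 of 6 called in males, Lpl, which encodes lipoprotein lipase (717, 911 and 1516 CPM in Ctrlm and 461, 467 and 644 in cKOm kidneys, log2 fold change -0.95, adjusted p = 0.00337). Lpl is also made outside the endothelium. In females edgeR called 0 of 6, with 1 at an unadjusted p under 0.05, limma-voom called 0, and DESeq2 called 1, Tbx3. For Tbx3, 6 of 6 cKOf kidneys lay above the Ctrlf median.

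In the list for the vasa recta, edgeR called 3 of 5 genes lower in males, where 4.9% of all genes were called lower. The log2 fold change was negative for 4 of 5 and positive for 1. The count was also 3 with limma-voom, and it was 4 with DESeq2 and without the kidneys that stand apart, the fourth being the urea transporter gene Slc14a1. Of all genes, 8.65%, 10.9% and 10.1% were called under these alternatives. Slco3a1, a transporter of organic anions, was at 130.6, 169 and 192 CPM in Ctrlm and at 64.7, 77.4 and 85.9 in cKOm kidneys, without overlap (log2 fold change -1.09, adjusted p = 3.36e-08). Gpm6a, a membrane glycoprotein, was at 133.9, 171 and 239 CPM in Ctrlm and at 88, 100.3 and 117 in cKOm kidneys, again without overlap (-0.82, adjusted p = 3.43e-06). Of all genes, 7.38% did not overlap between these groups. Aqp1, the water channel of the descending vasa recta, fell by 0.38 on the log2 scale (adjusted p = 0.0146, and 0.177 with the hepatocyte score as a covariate). Aqp1 is also abundant in the proximal tubule, and the paper lists its reduction there. It is counted again among the lower genes of the proximal tubule list below. In females 0 of 5 were called by edgeR, limma-voom or DESeq2, where they called 0.851%, 0.826% and 1.17% of all genes. At an unadjusted edgeR p under 0.05 there was 1, against 6.73% of all genes. The edgeR interaction of genotype and sex passed for 2 of 5 genes, where 2.31% of all genes were called. These were Slco3a1 (interaction -1.07, adjusted p = 4.41e-05) and Gpm6a (-0.78, adjusted p = 0.00159). Sex and the completeness of the deletion cannot be told apart in this test. Slco3a1 was also higher in Ctrlm than in Ctrlf kidneys (log2 difference 1.79, adjusted p = 3.41e-13). In RNA of the whole kidney, the cell type in which these transcripts fell was not measured.

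Lists of neighbouring cells were counted for comparison. Of all genes, edgeR called 9.05% in males and 0.851% in females, limma-voom 8.65% and 0.826%, and DESeq2 10.9% and 1.17%. An unadjusted edgeR p under 0.05 was reached by 25.1% of all genes in males and 6.73% in females. Log2 fold changes were negative for 47.7% in males and 49.5% in females. In males 10.1% were called without the kidneys that stand apart, and 7.38% did not overlap between the groups. In males, edgeR called 1 of 11 genes of pericytes, smooth muscle and mesangium, close to the share of all genes. It was Cspg4 of pericytes (log2 fold change 0.55, adjusted p = 0.00105), while 7 of 11 log2 fold changes were negative (median -0.08). In females the 3 tools called 0 of 11, with 2 at an unadjusted edgeR p under 0.05 and 8 of 11 positive. Of 10 podocyte genes, 0 were called in either sex by edgeR, limma-voom or DESeq2, with 1 at an unadjusted edgeR p under 0.05 in males and 0 in females. Of 5 erythroid genes, 0 were called in either sex by the 3 tools, with 0 at an unadjusted edgeR p under 0.05. Their log2 fold changes were negative for 5 of 5 in each sex (median -0.29 in males and -0.50 in females). Without the kidneys that stand apart, 3 of 5 had an unadjusted edgeR p under 0.05 in females, against 8.55% of all genes, and 0 of 5 in males. The hepatocyte list had 4 of 13 lower and 1 higher, Serpina1a, in males, against 6 called by limma-voom, 4 by DESeq2 without Serpina1a, and 5 lower and 0 higher without the kidneys that stand apart. Serpina1a lost its call under 17 and Alb under 13 of 37 alternatives. In females 0 were called by the 3 tools with 2 at an unadjusted edgeR p under 0.05. In males the tubule lists had 4 of 10 lower and 0 higher for the proximal tubule, where 5 of 10 log2 fold changes were positive, 1 of 8 higher for the thick limb and distal tubule, and 3 of 8 higher and 1 lower for the collecting duct. The male change of Slc5a12, a monocarboxylate transporter of the proximal tubule, was 0.63 on the log2 scale (adjusted p = 0.0512), without overlap between the groups, and it was called higher by limma-voom, by DESeq2 and without the kidneys that stand apart. In females the collecting duct list had 1 of 8 lower, the anion exchanger gene Slc4a1. Slc4a1 was also the collecting duct gene called lower in males, while Scnn1b, Atp6v1b1 and Slc26a4 were called higher there. The 3 tools called 0 in the other tubule lists in females, with 3 proximal tubule genes at an unadjusted edgeR p under 0.05.

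Within groups, the markers varied between mice by coefficients of variation from 3.88% (Emcn and Ehd3 in cKOm) to 26.2% (Cdh5 in Ctrlm). For each pair of markers, the log2 CPM less the group mean was correlated over the 21 kidneys that did not stand apart. Of 45 pairs, 0 passed an adjusted p under 0.05 (permutation within groups, lowest adjusted p = 0.276, and 0.0592 with all 24 kidneys). The largest correlation was that of Plvap and Eng (Pearson r = 0.61, permutation p = 0.00656, adjusted p = 0.276, Spearman rho = 0.63, permutation p = 0.00564, adjusted p = 0.254, r = 0.64 without the 2 kidneys farthest from the median of Plvap). Kdr and Plvap had an r of -0.52 (permutation p = 0.0293, adjusted p = 0.393).

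The correlations of the markers with the length and GC indices were computed in the same way, 20 relations in all. Over the 21 kidneys, Kdr was the only marker past the threshold, with the GC index (Pearson r = -0.68, permutation p = 0.00232, adjusted p = 0.0464, Spearman rho = -0.69, permutation p = 0.00184, adjusted p = 0.0368, r = -0.54 without the 2 farthest kidneys). With the length index Kdr had an r of 0.63 (adjusted p = 0.0836) and Tek of 0.16 (adjusted p = 0.876), and Plvap had an r of 0.60 with the GC index (adjusted p = 0.0836). With all 24 kidneys 11 of the 20 relations passed. Without the 3 kidneys that stand apart, the r of Tek with the length index fell from 0.73 to 0.16 and that of Flt1 from 0.68 to 0.03, while that of Kdr was 0.78 with and 0.63 without them. The longest transcripts of Kdr and Flt1 (5924 and 6895 bases) lie above the upper limit of the length index and that of Plvap (1987 bases) lies below the lower one, so these genes are among those that enter it.

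**Figure D4:**
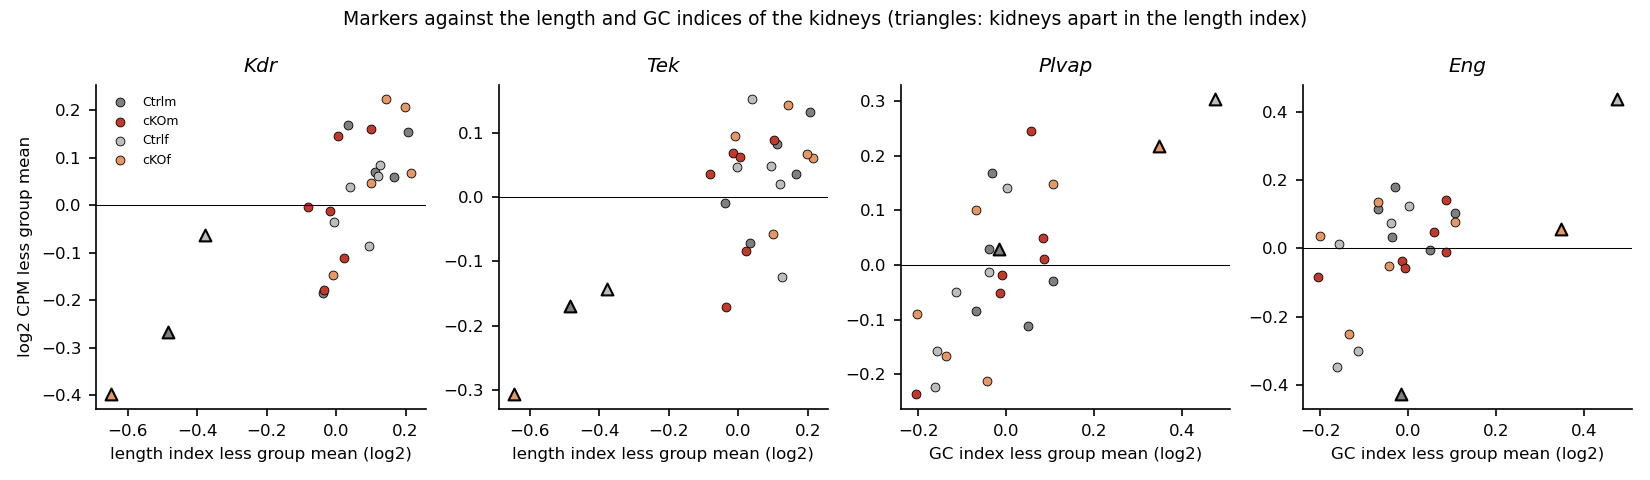
Log2 CPM of Kdr, Tek, Plvap and Eng less the group mean (vertical axes) against the length or GC index of the kidney, also less its group mean (horizontal axes, log2). Each point is a kidney, coloured by group, and triangles are the 3 kidneys that stand apart. The triangles lie at the low end of the length index with Kdr and Tek below 0. Without them the r of Tek was 0.16 over 21 kidneys (permutation p = 0.482).

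The genes whose log2 CPM less the group mean was most like the mean of the 10 markers over all 24 kidneys were Zcchc24 (Pearson r = 0.90), Fn1 (0.87), Nid1 (0.85), Piezo1 (0.85), Acly (0.84), Fbn1 (0.81), Svep1 (0.81), Lrp1 (0.81), Hip1 (0.79) and Abcc1 (0.79). They were ranked by this r and are given as a description. Of these 10, 1 was on an endothelial list, Svep1, a ligand of TIE1. Only Zcchc24 was still among the 10 most like genes over the 21 kidneys (r = 0.73), where Prss23 led (r = 0.81) and 0 of 10 were on an endothelial list.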

How the data were processed

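RNA of 24 whole kidneys was sequenced from stranded mRNA libraries, 1 library per mouse. The authors deposited raw read counts per gene (HTSeq 0.9.1, after trimming with cutadapt 1.8 and alignment with STAR 2.5.3a, as listed in the submitters' processing notes), on Ensembl genes of GRCm38. The strand setting of the counting is not given in the sources used here. Between 34.04% and 41.55% of reads per kidney were not assigned to a gene, most of them for lack of a unique alignment, and these were left out of library sizes.

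Groups followed the labels. A gene was kept if any 1 kidney reached 1 CPM, which left 16092 genes. The counts were fitted in edgeR 4.0.16 (R 4.3.3) with TMM scaling in 1 quasi-likelihood model of the 4 groups. Benjamini-Hochberg adjustment pooled both genotype comparisons, and was done separately for the interaction and for Ctrlm against Ctrlf, with a threshold of 0.05. Alternatives used limma 3.58.1, DESeq2 1.42.0, other scaling and filters, and each kidney left out. Those on the length and GC indices were chosen after seeing the data. Permutation tests drew 100000 resamples within groups. The edgeR fit was tested on simulated data. The replicate numbers carry no pairing. Total counts on genes were 19376152 to 28470831 per kidney, so a count of 3, the upper limit that a count of 0 allows, was 0.105 to 0.155 CPM, for counting error only.

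The marker genes and the gene lists were chosen with earlier results of these data known. The rule for names took all markers, Pex5, the genes of each list that passed a genotype test (up to 5), its 3 most abundant genes per length, and the 10 genes most like the markers. Angpt2, Nphs1, Slc14a1, Robo4, Pf4, Ppbp, Slc5a12 and Prss23 were named after their values were seen. The labels give 2 collection times for the kidneys, ZT3 and ZT9, so the time is uncertain.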

Additional observations from a re-analysis of the deposited data

Results flagged for a closer look

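In 40 groups of 6 kidneys (10 markers in 4 groups), 3 kidneys lay far from the rest of their group by Dixon's criterion, which chance alone meets in about 1 of 20 groups. Pecam1 was at 81.22 CPM in cKOm replicate 5, where the nearest cKOm kidney was at 64.8. Flt1 was at 79.25 CPM in cKOf replicate 6, where the nearest cKOf kidney was at 111.3. Eng was at 64.16 CPM in Ctrlm replicate 5, where the nearest Ctrlm kidney was at 86.07. Both cKOf replicate 6 and Ctrlm replicate 5 also stood apart in the length index, and cKOm replicate 5 did not.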

How the results depend on the processing

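Of the 2468 values of single genes under the alternatives, 2285 kept their direction and side of the threshold, 105 lost a call, 5 gained one and 73 changed sign. The number of markers called in males was 1 with DESeq2, each sex fitted alone, the GC index as a covariate, without the 3 kidneys that stand apart, and without Ctrlm replicate 5, and the range with each kidney left out was 0 to 1. In females and for the interaction it was 0 throughout. For Ctrlm against Ctrlf it was 1 with DESeq2, RLE scaling, the GC index and without the kidneys that stand apart, and 0 with every gene that had a count and with the hepatocyte score as a covariate. It ranged from 0 to 2 with each kidney left out, and was 0 without Ctrlm replicate 5, Ctrlm replicate 6, Ctrlf replicate 2 or Ctrlf replicate 5. Same-numbered kidneys did not deviate together (correlations -0.199 to 0.12), and with the replicate number as a block the count for Ctrlm against Ctrlf was 1 and no other count of markers changed. The cause was not tested.

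Signs turned as follows (log2 scale), none of these values passing the threshold. For Cdh5 in males the value was -0.0122 with DESeq2, -0.0121 with RLE, -0.0134 with upper quartile scaling, -0.0174 with every gene, -0.013 with the filter of at least 6 kidneys, -0.0129 with each sex alone, -0.0939 with the length index, -0.0267 with the hepatocyte score and -0.1421 without the kidneys that stand apart, and -0.1194 to 0.0633 with each kidney left out. For Cdh5 in females it was 0.0014 with limma-voom, 0.0036 with the replicate block and 0.0586 without the kidneys that stand apart (-0.0859 to 0.0325 with each left out). For its interaction it was -0.2007 without those kidneys, -0.09 with the length index and -0.0096 with the hepatocyte score (-0.107 to 0.0806). Without the kidneys that stand apart, the value was 0.0004 for Flt1 and 0.0079 for Eng in females, -0.1217 for the interaction of Ehd3, and 0.0437 for Pecam1, 0.0338 for Kdr, 0.0035 for Flt1 and 0.0312 for Eng in Ctrlm against Ctrlf. In the same comparison, Kdr was at 0.006 with DESeq2, 0.0059 with RLE, 0.005 with every gene and 0.041 with the length index, and Flt1 at 0.01, 0.0102, 0.0082 and 0.0385, and 0.0013 with the filter of at least 6 kidneys. With the hepatocyte score, Pecam1 was at 0.0878, Kdr at 0.1058, Flt1 at 0.0586 and Emcn at 0.017. With each kidney left out, Pecam1, Kdr and Flt1 in that comparison ranged from -0.0652 to 0.0219, -0.0485 to 0.0354 and -0.0395 to 0.0426, and in females Kdr from -0.0939 to 0.0216, Flt1 from -0.0689 to 0.0325, Emcn from -0.0072 to 0.0689, Plvap from -0.0915 to 0.0153 and Eng from -0.1357 to 0.0212. The interactions of Kdr and Ehd3 ranged from -0.1106 to 0.0049 and -0.0391 to 0.1155.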
